A study of Arvicanthis niloticus with 5 samples.

Results

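The genes described here are those in which mutations cause inherited degeneration of photoreceptors in people or animals, apart from most genes of phototransduction and the visual cycle. The set was given as 41 names, which stand for 38 genes because Dfnb31 is Whrn, Gpr98 is Adgrv1 and Rp2h is Rp2. A gene was found where a transcript of the deposited ortholog table carried its symbol in mouse, rat or human, and 34 of the 38 genes were found, on 39 transcripts, among 13981 named genes in all. The other 4, Rp2, Ush1g, Best1 and Crb1, had no transcript with their symbol and were not analysed here.

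RNA came from the eyes of wild type Nile rats (Arvicanthis niloticus), a day-active African rodent. The labels list 5 eye samples, all wild type and with no treatment, age or time of day given, and they state that the library was pooled from 5 rats. The expression table holds a single column, with 64967222 mapped fragments stated in its header. No source used here says whether this column joins the 5 listed samples or holds 1 of them, and it is treated below as 1 pool. There is no second group, no replicate and no p-value: each level is given in FPKM (fragments for each kilobase of a transcript and each 1000000 mapped fragments), summed over the transcripts of a gene, and values in square brackets are 95% intervals for counting error alone. In RNA of a whole eye, fewer cells of a type and less RNA per cell cannot be told apart.

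A photoreceptor detects light in its outer segment, a modified cilium packed with membrane discs that are shed and rebuilt throughout life. Outer segment proteins are made in the inner segment and must pass a narrow connecting cilium, so genes for disc structure, cilium, protein transport and the surrounding matrix and pigment epithelium can each, when mutated, lead to retinitis pigmentosa, Leber congenital amaurosis, cone and macular dystrophies or, with deafness, Usher syndrome. Some of the genes are made almost wholly in photoreceptors, and others, such as those of metabolism, are made in most cells.

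The labelled tissue carried its defining markers. All 10 photoreceptor markers were measured, from 24.9 FPKM for Pde6a to 344 FPKM for Gnat1, the alpha subunit of rod transducin. This range depends on the markers chosen: rod arrestin, Sag, is not among them and stood at 5.24 FPKM. It was the lowest of the 18 measured phototransduction genes described below. All 8 markers of the pigment epithelium were measured, between 17.8 and 432 FPKM. The highest of them, Rlbp1, is also counted among the markers of Müller glia, and Rpe65 was next at 238 FPKM. Lens markers (8 of 8, 194 to 2894 FPKM) and skeletal muscle markers (7 of 7, 15.3 to 174 FPKM) were present in the same pool, and so were 8 of 8 markers of Müller glia (3.84 to 818 FPKM). Of 9 symbols for inner ear hair cells, which share the Usher proteins with photoreceptors, 3 were found, between 1.86 and 4.61 FPKM. The lowest, Pou4f3, shared its transcript with the symbol Pou4f2, a gene of retinal ganglion cells, so its identity is uncertain. The part of these other cells in the levels below was not tested.

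The degeneration genes spanned a 543-fold range, from 0.818 FPKM for Clrn1 to 444 FPKM for Unc119, with a median of 14.3 FPKM over the 34 genes against 6.51 FPKM over all named genes. At FPKM 1 or more stood 32 of the 34 genes (94.1%), beside 93.2% of all named genes, a share near the background. At FPKM 10 or more stood 19 genes (55.9%), beside 34.0% of all named genes, and at FPKM 100 or more stood 5 genes (14.7%), beside 2.21%. The RNA was concentrated in a few genes. The 5 highest, Unc119, Prph2, Rom1, Cdhr1 and Efemp1, held 68.7% of the summed FPKM of the set, while the 17 lowest held 5.61%. In all, 24 genes lay above the median of named genes and 10 below it. The whole set made up 0.705% of the FPKM summed over the named genes.

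**Figure D1:**
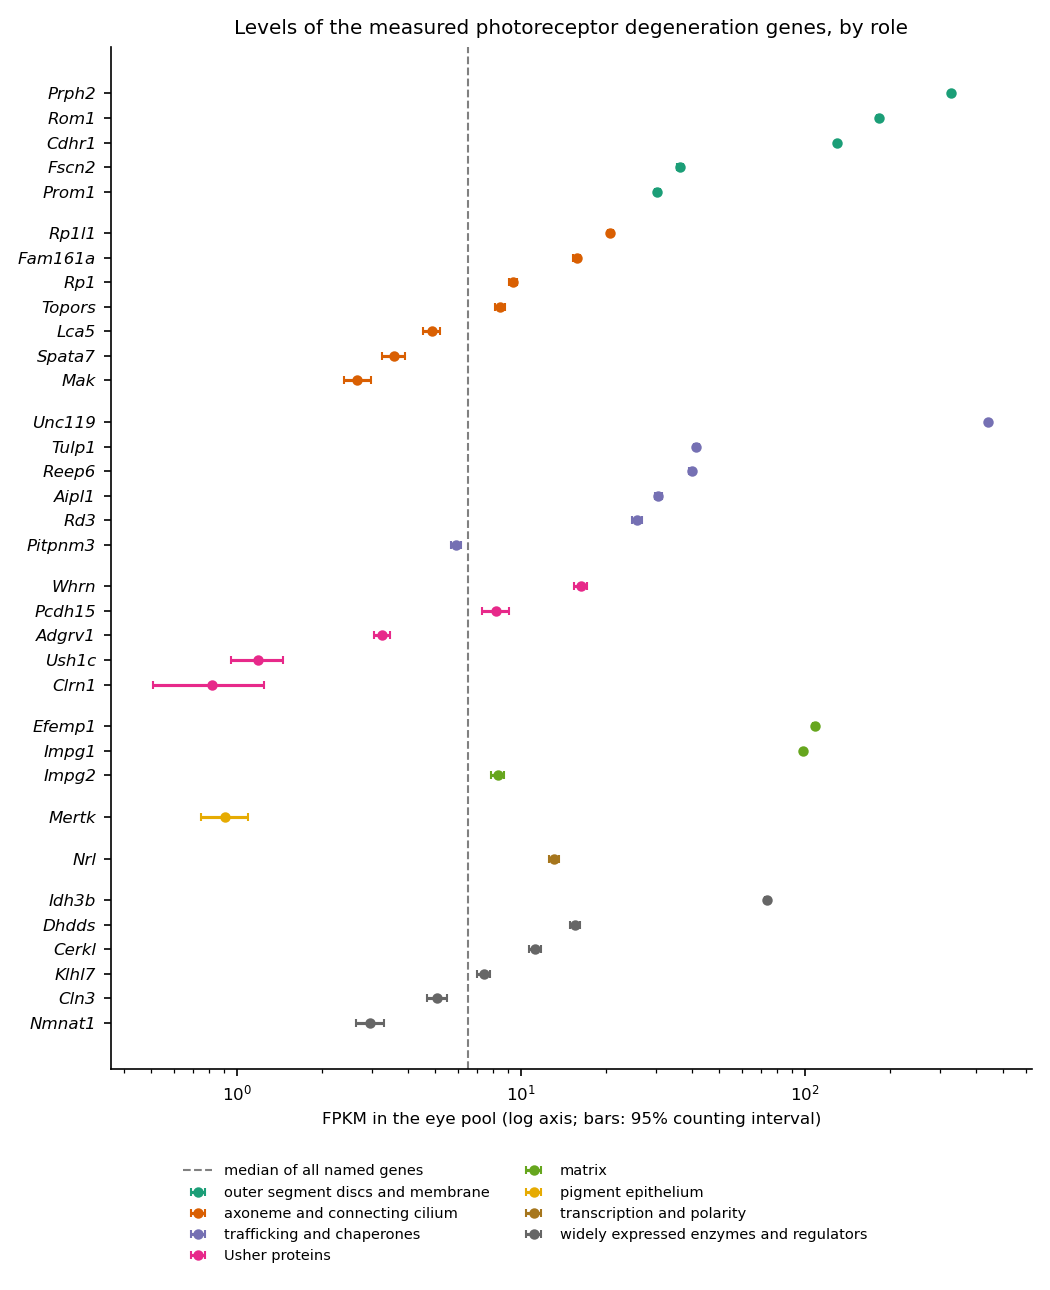
Level of each measured degeneration gene in the eye pool (FPKM, log axis), grouped by role; bars are 95% counting intervals and the dashed line is the median of all named genes, 6.51 FPKM. Disc and transport genes lie mostly to the right, with Unc119 at 444 and Prph2 at 328 FPKM, while 3 of the 5 Usher genes and Mertk lie left of the line.

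Genes of the outer segment discs and membrane were the highest class, with a median of 130.2 FPKM over 5 of 5 genes. Prph2 encodes peripherin-2, a tetraspanin that bends the disc rim and is lost in the mouse mutant retinal degeneration slow. It stood at 328 FPKM [325 to 331] on 55581 fragments, the most of any gene in the set. Rom1, its homologous partner in the rim complex, stood at 182 FPKM [180.1 to 185]. Prph2 was thus 1.80-fold [1.77 to 1.83] above Rom1, a difference far larger than the counting error and the same however transcripts were combined, since each gene had 1 transcript. Cdhr1, the photoreceptor cadherin at the base of the outer segment where new discs form, stood at 130.2 FPKM [129 to 131]. Its transcript was 4709 nt long and held 39835 fragments. Fscn2, a retinal fascin that bundles actin, followed at 36.5 FPKM [35.7 to 37.3]. Prom1 (prominin-1), a membrane protein of the growing disc edge, was the lowest of the class at 30.3 FPKM [29.8 to 30.9].

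In this class the degeneration gene of a family was not always far above its relatives. Prom1 was 6.09-fold [5.76 to 6.43] above Prom2. Fscn2 was 1.07-fold [1.03 to 1.10] above Fscn1, the fascin of many other cell types, at 36.5 against 34.2 FPKM, which is the smallest difference of the pairs compared here with summed transcripts.

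Genes of the axoneme and connecting cilium were lower, with a median of 8.45 FPKM over 7 of 7 genes. None reached 100 FPKM, a level that only 2.21% of all named genes reached. The median of the class was 4.86 FPKM with the highest transcript of each gene or a length-weighted mean, under which Rp1 is lower. Rp1l1, a microtubule-binding protein of the photoreceptor axoneme, was highest at 20.7 FPKM [20.3 to 21.1] on a transcript of 7375 nt, the longest in the set. Its paralog Rp1 was the sum of a transcript of 6307 nt at 4.80 FPKM and a transcript of 6349 nt at 4.63 FPKM, or 9.43 FPKM [9.14 to 9.73]. Rp1 was therefore lower than Rp1l1, with 9.43 against 20.7 FPKM and a log2 ratio of -1.13 [-1.19 to -1.08]. With a length-weighted mean the log2 ratio was -2.13. That mean is too low for Rp1 if fragments of 1 mRNA were divided between the 2 long transcripts, whose counts are fractional. Whether these transcripts are versions of 1 mRNA was not tested.

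Fam161a, a microtubule-associated protein of the ciliary base, stood at 15.8 FPKM [15.3 to 16.2]. Topors, a ubiquitin and SUMO ligase found in the nucleus and at the basal body, stood at 8.45 FPKM [8.10 to 8.82]. The remaining genes of this class all lay below the median of named genes. Lca5 (lebercilin, a partner of intraflagellar transport) stood at 4.86 FPKM [4.53 to 5.21], Spata7, a connecting cilium protein, at 3.58 FPKM [3.26 to 3.92], and Mak at 2.66 FPKM [2.38 to 2.97]. Mak is a kinase that limits the length of the cilium, and it was also below its paralog Ick, at 2.66 against 3.42 FPKM (0.778-fold [0.678 to 0.892]). Lca5 was 11.4-fold [6.61 to 19.8] above Lca5l, whose 471 nt transcript stood at 0.425 FPKM.

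Genes of protein transport and chaperones had a median of 35.3 FPKM over 6 of 7 genes. Unc119, a carrier of lipid-modified proteins such as the transducin alpha subunit, was the highest gene of the set at 444 FPKM [438 to 449.95]. Its transcript was short, at 755 nt, and by fragments Unc119 (21779) was the fifth in the set, after Prph2, Cdhr1, Impg1 and Rom1. Its widely expressed paralog Unc119b stood at 15.6 FPKM, so Unc119 was 28.5-fold [27.5 to 29.6] higher, the widest ratio of the 27 pairs compared when transcripts are summed. Arl3, the small GTPase that releases cargo from Unc119 and is switched off by the Rp2 protein, stood at 138 FPKM, and Unc119 was 3.21-fold [3.11 to 3.31] above it. Arl3 rested on short transcripts of at most 534 nt, and the log2 ratio, 1.68 with the sum, was 2.10 with transcripts of at least 500 nt only and 2.64 with a length-weighted mean.

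Tulp1, a tubby-like protein needed for the delivery of outer segment proteins, stood at 41.6 FPKM [40.6 to 42.5]. It was the highest of the 4 measured genes of its family. Tulp1 was 4.20-fold above Tub (9.90 FPKM), 12.6-fold above Tulp4 (3.30 FPKM) and 14.3-fold above Tulp3 (2.92 FPKM). Reep6, which shapes the endoplasmic reticulum of rods, stood at 40.0 FPKM [39.1 to 40.9], and its interval overlapped that of Tulp1. Reep6 was below Reep5, a relative made in many tissues, at 40.0 against 53.2 FPKM (0.752-fold [0.731 to 0.774]).

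Aipl1, the chaperone of the photoreceptor phosphodiesterase, stood at 30.6 FPKM [29.7 to 31.4], which overlapped the interval of Prom1. Rd3, which blocks retinal guanylate cyclase until it reaches the outer segment, stood at 25.7 FPKM [24.7 to 26.7]. Pitpnm3, of the membrane-associated phosphatidylinositol transfer proteins, was the lowest of the class at 5.92 FPKM [5.69 to 6.16]. It was below both relatives, Pitpnm1 at 26.5 FPKM and Pitpnm2 at 7.08 FPKM.

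**Figure D2:**
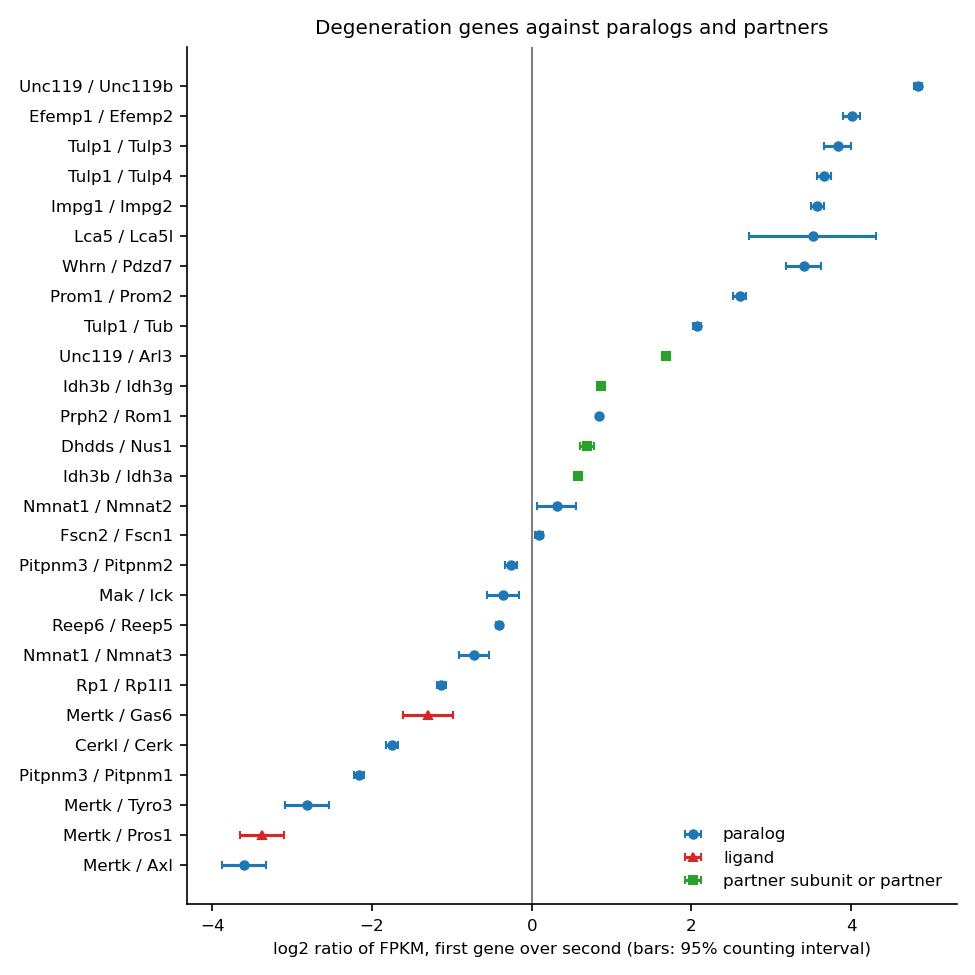
log2 ratio of FPKM of each degeneration gene over a paralog, partner or ligand in the eye pool; bars are 95% counting intervals, shapes give the relation and the vertical line marks equal levels. Of 27 pairs, 16 lie right of the line, led by Unc119 over Unc119b, and 11 lie left of it, with Mertk over Axl lowest.

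Genes of the Usher proteins were the lowest class with more than 1 measured gene, with a median of 3.25 FPKM over 5 of 6 genes. These proteins form adhesion and scaffold complexes in hair bundles and at the photoreceptor's ciliary base and calyceal processes. Whrn (whirlin, a PDZ scaffold) was highest at 16.3 FPKM [15.4 to 17.1], which added 12.8 FPKM from a transcript of 1115 nt to 3.47 FPKM from one of 4512 nt. Adgrv1, a very large adhesion receptor that binds whirlin, stood at 3.25 FPKM [3.04 to 3.47] on 862 fragments of a 4082 nt transcript. Pcdh15, a protocadherin of hair cell tip links, summed to 8.20 FPKM [7.34 to 9.13] over transcripts of 519 nt (6.02 FPKM) and 1467 nt (2.18 FPKM). The sums of Whrn and Pcdh15 are thus mostly the level of their shorter transcript, and the length-weighted means were 5.32 and 3.18 FPKM.

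Ush1c (harmonin, a PDZ scaffold) stood at 1.19 FPKM [0.959 to 1.46] on 93 fragments of a 1205 nt transcript. Clrn1 (clarin-1, a small membrane protein) was the lowest gene of the set at 0.818 FPKM [0.507 to 1.25], on 21 fragments of a 395 nt transcript. The intervals of both Ush1c and Clrn1 hold FPKM 1, so at this depth their side of that threshold is not settled. Of 6 further Usher genes, 5 were measured, with a median of 3.02 FPKM. Pdzd7, a paralog of whirlin, was their lowest at 1.54 FPKM, and Whrn was 10.6-fold [9.07 to 12.3] above it, or 1.79 on the log2 scale with a length-weighted mean of the Whrn transcripts. The motor Myo7a stood at 3.02 FPKM. Cib2, a calcium-binding protein, and Hars, the histidyl-tRNA synthetase, were the 2 highest at 27.6 and 28.8 FPKM. Hars shared its transcript with the symbol Dnd1, so its identity is uncertain.

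**Figure D3:**
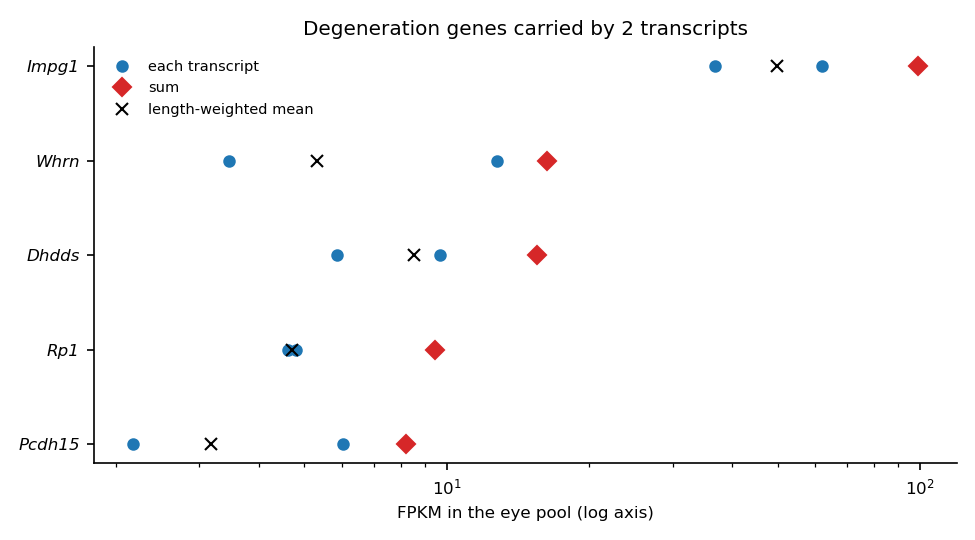
FPKM (log axis) of each transcript, of their sum and of their length-weighted mean for the 5 degeneration genes carried by 2 transcripts. In Rp1 the 2 transcripts have nearly the same level, at 4.80 and 4.63 FPKM, so the sum is 9.43 FPKM, while in Whrn and Pcdh15 the shorter transcript holds most of the sum.

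The matrix genes included some of the most abundant of the set. Efemp1 (fibulin-3), an extracellular glycoprotein mutated in a macular dystrophy with drusen and made by many cells of the eye, stood at 109 FPKM [107 to 111], 16.1-fold [14.9 to 17.3] above its paralog Efemp2 (6.77 FPKM over 2 transcripts). The log2 ratio, 4.01 with the sum, was 4.84 with the highest transcript and 5.03 with a length-weighted mean, values that reach or pass the 4.83 of Unc119 over Unc119b. Impg1 and Impg2 encode the proteoglycans of the matrix between photoreceptors and pigment epithelium. Impg1 summed to 98.9 FPKM [97.7 to 100.1] over a transcript of 4368 nt with a human symbol only (61.9 FPKM) and one of 4056 nt with a mouse symbol (36.9 FPKM). Impg2 stood at 8.30 FPKM [7.86 to 8.75]. Impg1 was 11.9-fold [11.3 to 12.6] above Impg2, a log2 ratio of 3.58, which was 2.59 with a length-weighted mean and 2.90 with the higher Impg1 transcript.

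Of the genes of the pigment epithelium only Mertk was measured. Mertk is the receptor kinase with which the pigment epithelium takes up shed discs, and its loss blinds the RCS rat. It stood at 0.912 FPKM [0.750 to 1.10] on 111 fragments of a 1873 nt transcript, with 5.65% of named genes lower, while Rpe65, an enzyme of the same cells, stood at 238 FPKM. Its relatives were higher: Tyro3 stood at 6.40 FPKM, 7.01-fold above Mertk, and Axl at 11.1 FPKM, 12.1-fold above Mertk. The ligands of these receptors were also above Mertk, Gas6 at 2.24 FPKM and Pros1 (protein S) at 9.46 FPKM. Any Mertk transcript that carried no symbol is not counted in this level. Best1 itself was not analysed here, and its paralog Best2 stood at 4.41 FPKM [4.08 to 4.75].

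Nrl, the transcription factor that sets rod fate, stood at 13.1 FPKM [12.6 to 13.7]. No ratio to its relative Maf was read, because a transcript named Maf in rat was named Mmd in mouse and human. Nrl lay at the lower end of the other retinal transcription factors mutated in disease, which had a median of 67.6 FPKM over 5 of 6 genes: Otx2 stood at 115 FPKM, Crx at 91.8 FPKM and the lowest, Rorb, at 13.6 FPKM. The intervals of Nrl and Rorb overlapped. Of the polarity genes, Crb1 was not analysed here, while its paralogs Crb2 and Crb3 stood at 1.80 FPKM [1.61 to 1.99] and 11.3 FPKM [10.7 to 12.1].

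Among the genes made in most tissues the median was 9.32 FPKM over 6 of 6 genes. Idh3b, the beta subunit of the mitochondrial NAD-dependent isocitrate dehydrogenase, was far above the others at 73.8 FPKM [72.4 to 75.2]. The other subunits of the same enzyme were of the same order, with Idh3a at 49.5 FPKM and Idh3g at 40.4 FPKM, so that Idh3b was 1.49-fold [1.45 to 1.54] and 1.83-fold [1.77 to 1.89] above them. Dhdds, the catalytic subunit of the enzyme that makes the dolichol chain, summed to 15.5 FPKM [14.9 to 16.1] over 2 transcripts, against 9.62 FPKM for its partner subunit Nus1. This order depended on how the transcripts were combined: the log2 ratio was 0.69 with the sum, 0.0064 with the higher transcript and -0.17 with a length-weighted mean.

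Cerkl, a ceramide-kinase-like protein, stood at 11.2 FPKM [10.7 to 11.8], lower than the ceramide kinase Cerk at 37.7 FPKM (0.298-fold [0.283 to 0.314]). Klhl7, an adaptor of a ubiquitin ligase, stood at 7.41 FPKM [7.04 to 7.80], and Cln3, a lysosomal membrane protein whose loss causes juvenile Batten disease, at 5.08 FPKM [4.67 to 5.51]. Nmnat1, which makes NAD in the nucleus, was the lowest of the class at 2.96 FPKM [2.63 to 3.31]. It lay between its paralogs, with Nmnat3 at 4.89 FPKM and Nmnat2 at 2.38 FPKM.

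When all 34 genes were ordered by level, 13 of the 33 neighbouring pairs had overlapping counting intervals. Among them were Tulp1 and Reep6, Aipl1 and Prom1, the run of Whrn, Fam161a and Dhdds, the run of Topors, Impg2, Pcdh15 and Klhl7, the run of Spata7, Adgrv1, Nmnat1 and Mak, and the 3 lowest, Ush1c, Mertk and Clrn1. The 8 highest genes, from Unc119 to Tulp1, were separated from each other by more than counting error, which holds no variation between animals. Across the 34 genes, level and the length of the longest transcript had a Spearman correlation of 0.27, which is a description over genes of 1 pool that share a library and a length normalization.

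Other retinal disease genes gave a frame for these levels. Over 6 lists of such genes, which leave out the further Usher genes given above, 78 were measured. The 34 degeneration genes had a median of 14.3 FPKM, beside 17.0 FPKM for these 78. Phototransduction genes (18 measured, median 49.9 FPKM) and visual cycle genes (10 of 10, median 53.5 FPKM) were higher as lists. Guca1a, a guanylate cyclase activator, stood at 410 FPKM, Rlbp1, a retinoid carrier, at 432 FPKM and Rbp3, the retinoid-binding protein of the matrix, at 305.5 FPKM, and the lowest genes of these lists were Sag at 5.24 FPKM and Rbp4 at 12.1 FPKM. The level of Sag, rod arrestin, rested on a single 1051 nt transcript. The axoneme and cilium genes described above had a median of 8.45 FPKM, beside 5.83 FPKM for other ciliary disease genes (22 of 25 measured). With a length-weighted mean these medians were 4.86 and 5.63 FPKM, in the opposite order. Arl3 and Arl2bp, an Arl-binding protein, were the 2 highest of these other genes at 138 and 110 FPKM, and Rpgrip1l, of the ciliary transition zone, was the lowest at 1.91 FPKM.

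Pre-mRNA splicing factors mutated in dominant retinitis pigmentosa had a median of 11.9 FPKM over 7 of 7 genes. Prpf31 was highest at 30.3 FPKM, followed by Prpf6 at 14.7 FPKM, and Prpf4 was lowest at 3.36 FPKM. Genes of metabolism and other functions had a median of 10.5 FPKM over 16 of 16 genes. Timp3, an inhibitor of matrix proteases, and Hk1, a hexokinase, were highest at 125 and 112 FPKM, and Flvcr1, a membrane transporter, was lowest at 2.17 FPKM.

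**Figure D4:**
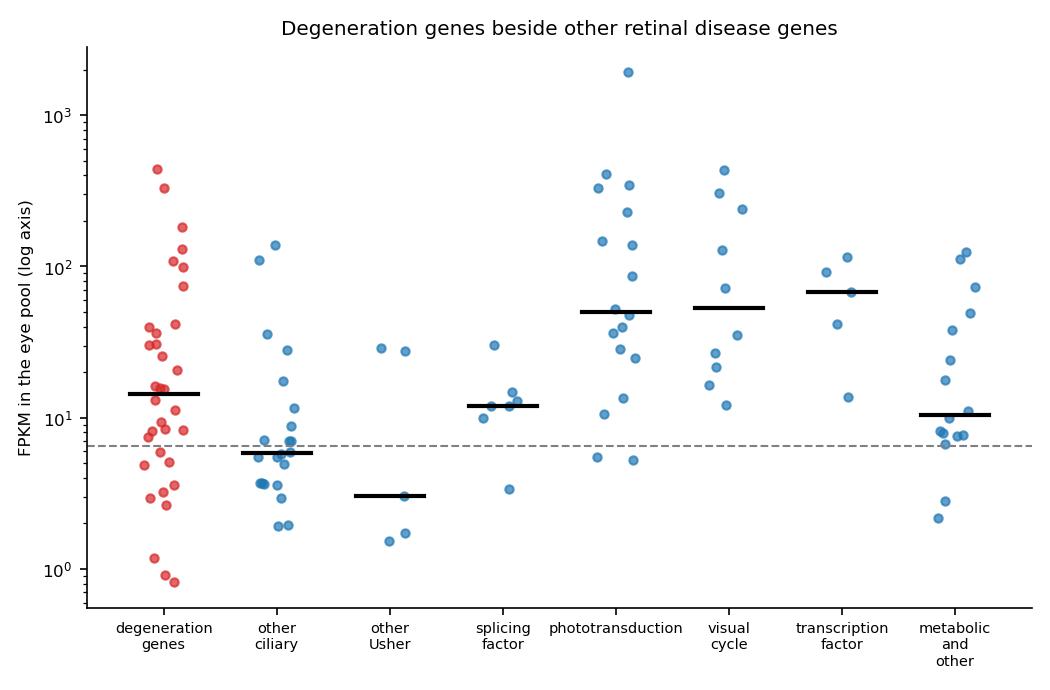
FPKM (log axis) of each measured gene among the degeneration genes (red) and in 7 lists of other retinal disease genes (blue); black lines are medians and the dashed line is the median of all named genes. The degeneration genes, with a median of 14.3 FPKM, span nearly the range of the other lists together.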

How the data were processed

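Eye RNA of Nile rats was sequenced as a library pooled from 5 rats, per the labels' protocols. Bowtie was used, per the submitters' processing notes; its version and the way transcripts were assembled are not stated in any source used here. The authors, per the file headers, deposited for each of 124439 transcripts an FPKM, an estimated count of fragments and a length. The estimated counts deposited by the authors were fractional for 39.3% of transcripts, and for 28 of the 39 transcripts of the degeneration genes. Fragments were thus divided between transcripts, which adds an error that no interval here holds. FPKM equals the count divided by full length and by the stated total (largest relative deviation 1e-07). No column is assigned to 1 sample by its name, so no test was possible.

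Background genes were named by the first symbol in the order mouse, rat, human. Level intervals are gamma (Fay-Feuer) and ratio intervals delta-method. Both are Poisson and cover counting error only. They were checked on simulated counts that were themselves Poisson. That check holds no division of fragments between transcripts and leaves out transcripts with the fewest fragments. For a transcript of 1000 nt, FPKM 1 stands for 65.0 fragments, and where none is counted the limit is 3 fragments, equal to 0.0462 FPKM.

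The named genes are all measured members, their paralogs and partners, and the 2 highest and the lowest gene of each list; further genes were chosen after their values were seen, and some under this rule are not reported here one by one. Members and lists were chosen with earlier results of these data known. Of 38 members, 37 matched a symbol of the species in RefSeq (assembly mArvNil1.pat.X), the exception being Rp1. Alternatives changed the combination of transcripts, the length filter, scaling, naming, threshold and pseudocount. The software was SciPy 1.17.1, pandas 2.3.3 and NumPy 2.4.6 under Python 3.11.15, with figures from Matplotlib 3.10.9.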

Additional observations from a re-analysis of the deposited data

Results flagged for a closer look

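Transcripts with an ortholog but no gene symbol held 5.72% of all fragments, on 3660 transcripts that none of the comparisons used. This signal lies in data outside the measured genes. Any transcript of Rp2, Ush1g, Best1 or Crb1, or a further transcript of a measured gene, that carries only an identifier would be among them, and this was not tested. Of the 124439 transcripts in all, 15454 carried a symbol. A transcript of these genes with no ortholog listed would lie outside both groups, and such transcripts were not searched.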

How the results depend on the processing

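The median of the degeneration genes was 12.0 FPKM with the highest transcript of each gene, 9.88 FPKM with a length-weighted mean, 15.5 FPKM with transcripts of at least 500 nt, 10.4 FPKM after rescaling to a sum of 1000000, 11.2 FPKM with transcripts whose symbols agree between species and 15.6 FPKM over genes of at least FPKM 1, against 14.3 FPKM as reported. Their share of named FPKM was 0.718% with the highest transcript, 0.733% with a length-weighted mean, 0.795% with transcripts of at least 500 nt, 0.545% with agreeing symbols and 0.877% when fragments replaced FPKM, against 0.705%. The median of the other retinal disease genes was 14.2 FPKM with a length-weighted mean and 12.4 FPKM after rescaling. Between 29 and 34 genes were detected under all alternatives, including thresholds of FPKM 0.5 and 2. The count of 29 came with agreeing symbols. That setting left out Unc119, Cdhr1 and Reep6, whose transcripts also carry the symbols Unc-119, Pcdh21 and Dp1l1. The number of pairs with the degeneration gene higher was 16 as reported and 12 to 16 under the alternatives, some of which measured fewer pairs. A single ratio changed direction, Dhdds to Nus1, at -0.17 on the log2 scale with a length-weighted mean. A pseudocount of 1 FPKM moved the log2 ratios of genes near FPKM 1 toward 0, with Lca5 to Lca5l at 2.04, Mertk to Tyro3 at -1.95, Mertk to Axl at -2.66, Mertk to Pros1 at -2.45 and Whrn to Pdzd7 at 2.77. The highest transcript and the length-weighted mean moved the levels of 5 genes each beyond their counting interval, those with 2 transcripts, by construction. Leaving out a sample could not be done with 1 pool. No paired analysis was possible because the table holds a single column of values. Depth limits the lowest genes: Clrn1 rested on 21 fragments.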

Other observations

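Grouped by human disease, a grouping made after the values were seen, the genes of Leber congenital amaurosis fell on both sides of the median of named genes. Of 7 genes, 6 were measured with a median of 15.3 FPKM: Tulp1 (41.6 FPKM), Aipl1 (30.6 FPKM) and Rd3 (25.7 FPKM) lay above it, and Lca5 (4.86 FPKM), Spata7 (3.58 FPKM) and Nmnat1 (2.96 FPKM) below it. Genes of cone, cone-rod or macular dystrophies had a median of 98.9 FPKM over 9 of 10 genes, from 5.92 FPKM for Pitpnm3 to 444 FPKM for Unc119. This median is the summed level of Impg1, and it was 61.9 FPKM where each gene took its highest transcript and 49.9 FPKM with a length-weighted mean. In the RefSeq annotation of the species, Aipl1 and Pitpnm3 are separated by 1 protein-coding gene, and stood at 30.6 and 5.92 FPKM. Impg1 and Lca5, with 5 protein-coding genes between them, stood at 98.9 and 4.86 FPKM.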
